A study of Homo sapiens and Mus musculus with 7 samples.

Results

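The genes of the interferon response described here are 9, taken from the RNA-seq table of HEL cells by their gene symbols: XAF1, BST2, STAT2, IRF1, IRF9, ISG15, IFI6, IFITM1 and MAVS. All 9 were in the table, among 14919 genes in all. HEL is a human erythroleukaemia line, and each of its 4 libraries was made from total RNA of 1 group. The groups were KAP1 KD cells activated with hemin at 50 µM for 5 days, KAP1 KD cells without activation, KAP1 WT cells with the same hemin treatment and KAP1 WT cells without activation. KAP1, the product of TRIM28, is a corepressor that KRAB zinc finger proteins bring to chromatin. KD stands for knockdown; neither its method nor whether the cells were 1 clone is stated in the sources used here. The columns of the control libraries are headed Ctrl; they were taken as KAP1 WT, the one other genotype among the HEL samples, and are called control below. With 1 library per group, differences between 2 libraries have no replicate check.

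Interferons are secreted proteins that bind receptors on nearby cells and switch on antiviral genes. The receptors act through JAK kinases, and type I interferon brings STAT2 and IRF9 into the factor ISGF3, which binds the interferon-stimulated response element. Interferon gamma acts mainly at gamma-activated sites, and IRF1 is a classic target there. Upstream, MAVS on the mitochondrial membrane passes on signals from the cytosolic RNA sensors RIG-I and MDA5. BST2, also called tetherin, holds budding enveloped virus at the cell surface. IFITM1 is a membrane protein that hinders virus entry, ISG15 is a ubiquitin-like modifier, IFI6 encodes a small hydrophobic protein, and XAF1 encodes a protein that binds the apoptosis inhibitor XIAP.

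Levels are given as scaled TPM. They are reads per transcript length, put on a common scale with an effective total for each library, so that genes and libraries can both be compared. The libraries held 24025542 to 42105288 reads on 1 transcript per gene, and the KD library without hemin was the shallowest. Ratios are on a log2 scale after adding 0.5 scaled TPM to each level, so differences of low genes come out too small. Each ratio is followed by an exact conditional binomial 95% interval on the reads, without the pseudocount. They cover counting error only, not how far cultures vary. A gene counted as apart when it differed at least 2-fold and its higher library reached 5 scaled TPM.

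The targeted gene TRIM28 was at 317 scaled TPM in KD cells against 421 in control cells without hemin, and at 190 in KD cells against 400 in control cells with hemin. It was thus lower in both KD libraries, with log2 ratios of -0.41 (no hemin) and -1.07 (hemin). Its row holds whole numbers, unlike nearly all others. Read as reads instead of values, it gave -0.55 and -1.06.

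The promoters show which members hold the letters of the elements named above. RefSeq promoters on GRCh38.p14, from 250 bases before to 50 after the start, matched all 9 genes by symbol, and 5 are printed. BST2 and XAF1 are the members with the largest differences, ISG15 is the one that was higher in both KD libraries, IFITM1 differed in direction between the states, and IRF1 is shown for its gamma-activated site letters. The promoters are BST2 at chr19:17405581-17405880 (minus strand), XAF1 at chr17:6755796-6756095 (plus strand, 1 of its 2 start sites), ISG15 at chr1:1013247-1013546 (plus strand), IFITM1 at chr11:313790-314089 (plus strand) and IRF1 at chr5:132490724-132491023 (minus strand). Capitals mark bases covered by the letters of the interferon-stimulated response element, searched on both strands as GAAA, any 2 bases and GAAA, or by TTCNNNGAA, those of the gamma-activated site, which is its own reverse complement.
BST2: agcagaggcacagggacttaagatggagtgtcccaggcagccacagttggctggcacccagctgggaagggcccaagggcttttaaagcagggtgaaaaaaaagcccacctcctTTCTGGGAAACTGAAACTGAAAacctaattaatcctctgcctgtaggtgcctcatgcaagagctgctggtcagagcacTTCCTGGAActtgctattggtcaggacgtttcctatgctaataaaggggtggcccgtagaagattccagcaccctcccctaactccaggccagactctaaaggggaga
XAF1: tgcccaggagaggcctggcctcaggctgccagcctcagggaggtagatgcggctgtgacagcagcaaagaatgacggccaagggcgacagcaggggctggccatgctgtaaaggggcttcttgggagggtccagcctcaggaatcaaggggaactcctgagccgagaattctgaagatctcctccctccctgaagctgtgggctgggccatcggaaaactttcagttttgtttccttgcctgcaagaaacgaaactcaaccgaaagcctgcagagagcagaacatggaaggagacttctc
ISG15: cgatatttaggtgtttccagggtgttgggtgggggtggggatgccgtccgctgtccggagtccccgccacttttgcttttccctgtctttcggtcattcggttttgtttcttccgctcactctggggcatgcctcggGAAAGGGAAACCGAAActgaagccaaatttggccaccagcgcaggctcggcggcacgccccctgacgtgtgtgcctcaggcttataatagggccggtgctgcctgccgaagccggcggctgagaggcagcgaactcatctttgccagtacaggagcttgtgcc
IFITM1: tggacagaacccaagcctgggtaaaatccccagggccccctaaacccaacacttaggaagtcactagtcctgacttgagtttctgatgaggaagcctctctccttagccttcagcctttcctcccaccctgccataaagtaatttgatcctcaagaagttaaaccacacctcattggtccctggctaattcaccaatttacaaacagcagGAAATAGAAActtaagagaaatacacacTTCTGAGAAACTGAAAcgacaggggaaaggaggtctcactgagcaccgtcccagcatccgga
IRF1: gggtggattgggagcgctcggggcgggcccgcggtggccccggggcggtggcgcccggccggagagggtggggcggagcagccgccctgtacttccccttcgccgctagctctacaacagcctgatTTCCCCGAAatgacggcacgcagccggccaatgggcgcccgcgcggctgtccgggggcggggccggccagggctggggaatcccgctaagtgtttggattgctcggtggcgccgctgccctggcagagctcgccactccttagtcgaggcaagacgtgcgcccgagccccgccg

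The response element letters were found in 4 of the 9 genes (BST2, IFI6, IFITM1 and ISG15), against 3.57% of all 35116 promoters in the reference table. In BST2 there were 2 overlapping matches between bases -130 and -115 from the start, and in ISG15 2 between -113 and -98. IFI6, whose promoter is not printed, had 3. Among pathway genes outside the members, 43% of 114 promoters held these letters. The gamma-activated site letters were found in 4 genes (BST2, IFITM1, IRF1 and IRF9), against 7.66% of all promoters and 25.4% of the 114. One match in BST2 (bases -136 to -128) and the one in IFITM1 (-12 to -4) overlapped the response element letters, and a second BST2 match (-58 to -50) did not. Neither window of XAF1, which has 2 start sites in the reference, held either set of letters, and the windows of STAT2 and MAVS held neither. Members with the response element letters thus included BST2, lower in both KD libraries, and ISG15, higher in both.

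XAF1 and BST2 were the members furthest apart between KD and control, and both were lower in KD. XAF1 (NM_017523) was at 2.93 scaled TPM in KD cells against 17.7 in control cells without hemin, and at 5.13 in KD cells against 14.5 in control cells with hemin. Reads were 125 and 392 in the KD libraries without and with hemin, against 1025 and 959 in the controls. Both KD libraries lay below both controls. The log2 ratio was -2.41 without hemin, a 5.30-fold difference with an interval of -2.87 to -2.32, and -1.41 with hemin, 2.66-fold with an interval of -1.67 to -1.33. The other XAF1 transcript of the table, NM_199139, had -2.51 and -1.41, but 2 such transcripts share most of their sequence and reads. BST2 (NM_004335) was at 8.40 scaled TPM in KD cells against 24.9 in control cells without hemin, and at 7.02 against 27.7 with hemin. Its KD libraries again lay below both controls. Its log2 ratio was -1.51 (interval -1.90 to -1.24) without hemin and -1.91 (interval -2.26 to -1.71) with hemin, on 97 and 145 reads in KD against 390 and 496 in control. Among all genes by level without hemin, XAF1 ranked 11326th in KD cells against 7139th in control cells, and BST2 9300th in KD cells against 5970th in control cells.

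The transcription factors and the adaptor MAVS were lower in KD by less. STAT2 (NM_005419), the part of ISGF3 used by type I interferon, was at 28.1 scaled TPM in KD cells against 50.3 in control cells without hemin, and at 42.3 against 61.2 with hemin. The log2 ratios were -0.83 (interval -0.93 to -0.76) and -0.53 (interval -0.59 to -0.47). Each KD library was below the control of its own state and below both controls. IRF9 (NM_006084), which gives ISGF3 its DNA contact, was at 28.1 scaled TPM in KD cells against 38.8 in control cells without hemin, and at 44.0 against 53.4 with hemin. Its log2 ratios were -0.46 (interval -0.62 to -0.32) and -0.28 (interval -0.38 to -0.18). IRF9 in KD cells with hemin lay above the control without hemin, so its KD and control libraries overlap once the states are mixed. IRF1 (NM_002198), a transcription factor and tumour suppressor, was at 27.7 scaled TPM in KD cells against 45.3 in control cells without hemin, and at 30.9 against 42.9 with hemin. That is a log2 ratio of -0.70 (interval -0.81 to -0.61) and -0.47 (interval -0.55 to -0.39), with both KD libraries below both controls. MAVS (NM_020746) was at 24.6 scaled TPM in KD cells against 35.5 in control cells without hemin, and at 27.4 against 39.0 with hemin. Its log2 ratios were close to each other, -0.52 (interval -0.59 to -0.47) and -0.50 (interval -0.55 to -0.46), both KD libraries lay below both controls, and it had the most reads of the 9, between 3403 and 8359 per library.

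ISG15, IFI6 and IFITM1, the most abundant members, went another way. ISG15 (NM_005101) was at 76.8 scaled TPM in KD cells against 53.6 in control cells without hemin, and at 84.4 against 62.0 with hemin. Both KD libraries lay above both controls, with log2 ratios of 0.51 (interval 0.35 to 0.68) and 0.44 (interval 0.31 to 0.58), though the first turns negative in the deposited values, which carry depth. IFI6 (NM_002038) was at 95.9 scaled TPM in KD cells against 98.5 in control cells without hemin, and at 94.0 against 75.8 with hemin. The first pair did not differ beyond counting error, with a log2 ratio of -0.04 (interval -0.16 to 0.08) that changes sign with plain library totals, while the second had 0.31 (interval 0.20 to 0.42). The other IFI6 transcripts, which share reads with the first, had 0.01 and 0.02 without hemin and 0.31 and 0.32 with hemin. IFITM1 (NM_003641) was at 293 scaled TPM in KD cells against 346 in control cells without hemin, and at 289 against 237 with hemin. Its log2 ratio was -0.24 (interval -0.31 to -0.17) without hemin and 0.29 (interval 0.22 to 0.35) with hemin, so the direction differed between the states. The spread lay in the controls, since the KD libraries were nearly equal. IFITM1 is close in sequence to IFITM2 and IFITM3, and the authors' counting could have split reads among them.

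**Figure D1:**
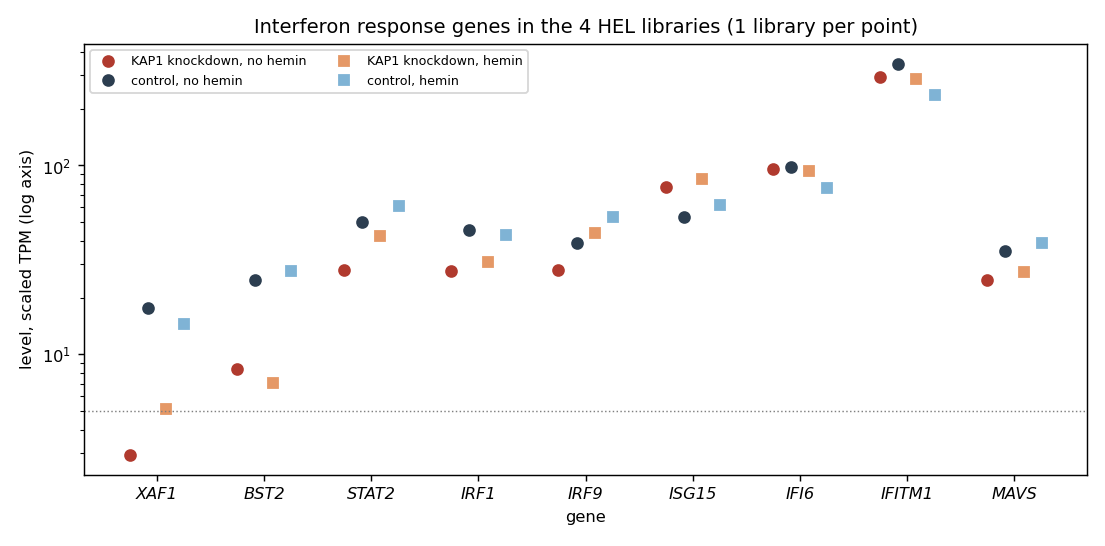
Level of each of the 9 genes in scaled TPM on a log axis, with 1 point per library and the floor of 5 as a dotted line. XAF1 and BST2 are low in both KD libraries (2.93 to 8.40) against 14.5 to 27.7 in the controls, while ISG15 is higher in both KD libraries.

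Over the members, 2 of 9 were at least 2-fold lower in KD without hemin, where 6.44% of 10878 genes were, and 0 were at least 2-fold higher, against 6.7% of genes. With hemin 2 of 9 were at least 2-fold lower, against 4.13% of 10904 genes, and 0 were higher, against 6%. XAF1 and BST2 made up the count in both states, where 2.07% of 10620 genes were lower in both; 0 members were at least 2-fold higher in both, against 2.77%. Counted by any amount, 8 of 9 were lower without hemin, against 48.2% of genes, and 1 higher, against 51.8%. With hemin 6 were lower, against 49.6%, and 3 higher, against 50.4%. In both states 6 were lower, against 34.5%, and 1 (ISG15) higher, against 36.7%. The median log2 ratio of the members was -0.52 without hemin and -0.47 with hemin, against 0.03 and 0.01 over all genes tested. The counting interval lay below 0 for 7 members without hemin, against 40.2% of 10874 genes, and above it for 1, against 43%. With hemin it lay below 0 for 6, against 40.7% of 10900 genes, and above it for 3, against 42%. Most genes thus differed beyond counting error. The 9 genes were chosen with earlier results of these data known. No excess over all genes is therefore read from these counts or from those of the fit below. In bulk RNA, fewer cells that express a gene and less of its RNA per cell cannot be told apart.

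**Figure D2:**
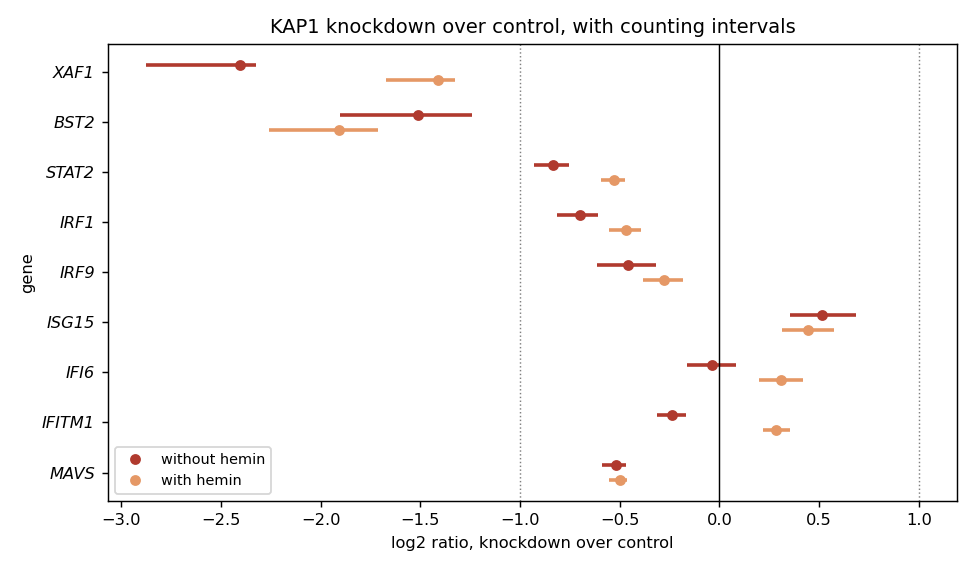
Log2 ratio of knockdown over control for the 9 genes without and with hemin; points are on the pseudocount scale, bars are 95% counting intervals and dotted lines mark 2-fold. XAF1 and BST2 are past -1 in both states, STAT2, IRF1, IRF9 and MAVS lie between -0.83 and -0.28, and IFITM1 changes side.

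An additive model over all 4 libraries, with knockdown and hemin as terms, was the one fit with a residual degree of freedom (1, the interaction). Its p-values rest on a spread that limma pooled over all 11162 genes tested, and so on departures from additivity, not on replicates. The prior degrees of freedom were infinite, so a gene's own departure from additivity had no weight in its p-value. In this fit 3 members fell with knockdown, where 10.2% of genes fell, and 0 rose, where 12.1% did. The log2 coefficient was -1.91 for XAF1 with SE 0.31 and limma adjusted p = 2.63e-08. For BST2 it was -1.71 with SE 0.26 and limma adjusted p = 6.32e-09. For STAT2 it was -0.68 with SE 0.24 and limma adjusted p = 0.0225, a call lost with plain library totals (limma adjusted p = 0.0723) and with limma without a trend (0.0581). The calls of XAF1 and BST2 held with plain library totals (limma adjusted p = 6.58e-05 and 2.9e-05) and without a floor (0.000876 and 0.000643). They were lost in the deposited values, which carry depth (0.0932 and 0.166). The other 6 did not pass: IRF1 had -0.58 (limma adjusted p = 0.0596), MAVS -0.51 (0.114), ISG15 0.48 (0.128), IRF9 -0.37 (0.278), IFI6 0.13 (0.741) and IFITM1 0.02 (0.957). Least squares without pooling called 0 of all genes, with 1132 at an unadjusted p under 0.05, and 3701 genes had such a p in limma. By least squares the adjusted p was 0.532 for XAF1 and 0.503 for BST2.

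The rest of the pathway was described from lists by role, also chosen with earlier results known, which hold 159 genes beside the 9. Of these 131 were in the table, and 116 reached the floor without hemin and 117 with hemin. In KD cells without hemin 14 of 116 were at least 2-fold lower, against 6.44% of all genes, and 4 higher, against 6.7%. With hemin 8 of 117 were lower, against 4.13%, and 3 higher, against 6%. Their median log2 ratio was -0.21 without hemin and -0.11 with hemin. In the additive fit 23 of 118 fell with knockdown and 8 rose by limma with Benjamini-Hochberg adjustment, where 10.2% and 12.1% of all genes did. Of 21 ligand genes, the interferons themselves, 0 had a row in the table used here, which lists no value of 0.

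Of 5 receptor genes at the floor, 3 were lower in KD by any amount without hemin and 4 with hemin, against 48.2% and 49.6% of all genes, and 2 fell in the additive fit. IFNGR2, a chain of the interferon gamma receptor, was at 11.8 scaled TPM in KD cells against 34.3 in control cells without hemin, and at 8.35 against 19.7 with hemin. Among 12 signalling genes, STAT2 and IRF9 included, 8 were lower without hemin and 10 with hemin, and 5 fell and 1 rose in the fit. The list of interferon regulatory factors also holds IRF2BP1 and IRF2BP2, which encode IRF2-binding proteins. Of its 8 genes at the floor, 5 were lower without hemin and 6 with hemin. The 1 that fell in the fit was IRF2BP2 (log2 coefficient -1.25, limma adjusted p = 1.89e-06), named after its values were seen. Sensors and adaptors, among them MAVS, had median log2 ratios of -0.16 without hemin and 0.02 with hemin, with 2 of 20 falling and 1 rising. Over all genes 10.2% fell and 12.1% rose in the fit.

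Effector lists went both ways. Antiviral effectors had medians of -0.05 and -0.17 without and with hemin. In the fit 4 of 25 fell and 4 rose, near the 10.2% and 12.1% of all genes that did. ISG20, an exonuclease gene, was at 3.15 scaled TPM in KD cells against 7.21 in control cells without hemin, on 18 and 56 reads, and at 5.67 against 22.3 with hemin. APOBEC3B, a cytidine deaminase gene, was higher in KD, at 71.6 scaled TPM against 31.6 in control cells without hemin and at 74.3 against 26.0 with hemin, though its family members share sequence. In the list of ISG15 and the enzymes that attach or remove it, 5 of 6 genes, ISG15 among them, were higher in KD by any amount in each state, against 51.8% of all genes without hemin and 50.4% with hemin. In the fit USP18, which removes ISG15, rose (log2 coefficient 0.87, limma adjusted p = 0.00345) and UBE2L6, its conjugating enzyme, fell (-0.64, limma adjusted p = 0.0227). The activating enzyme gene UBA7 had log2 ratios of 0.02 and 0.06. These 3 were named after their values were seen.

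The list of other interferon-stimulated genes had medians of -0.45 without hemin and -0.10 with hemin. In the fit 7 of 34 fell and 2 rose, against 10.2% and 12.1% of all genes. WARS, tryptophanyl-tRNA synthetase, was at 124 scaled TPM in KD cells against 484 in control cells without hemin, and at 85.7 against 211 with hemin. IFI30, a lysosomal thiol reductase gene, was at 8.75 scaled TPM in KD cells against 20.0 in control cells without hemin, and at 4.89 against 14.8 with hemin. Both were at least 2-fold lower in KD in each state, as XAF1 and BST2 were. Antigen presentation genes had medians of -0.02 and 0.03, with 4 of 19 falling and 0 rising, against the same shares of all genes. TAP1, a subunit of the peptide transporter, was at 64.9 scaled TPM in KD cells against 163 in control cells without hemin, and at 98.8 against 212 with hemin. The 6 pathway genes outside the members that were at least 2-fold apart the same way in both states were WARS, IFNGR2, IFI30, TAP1 and ISG20, all lower, and APOBEC3B, higher.

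**Figure D3:**
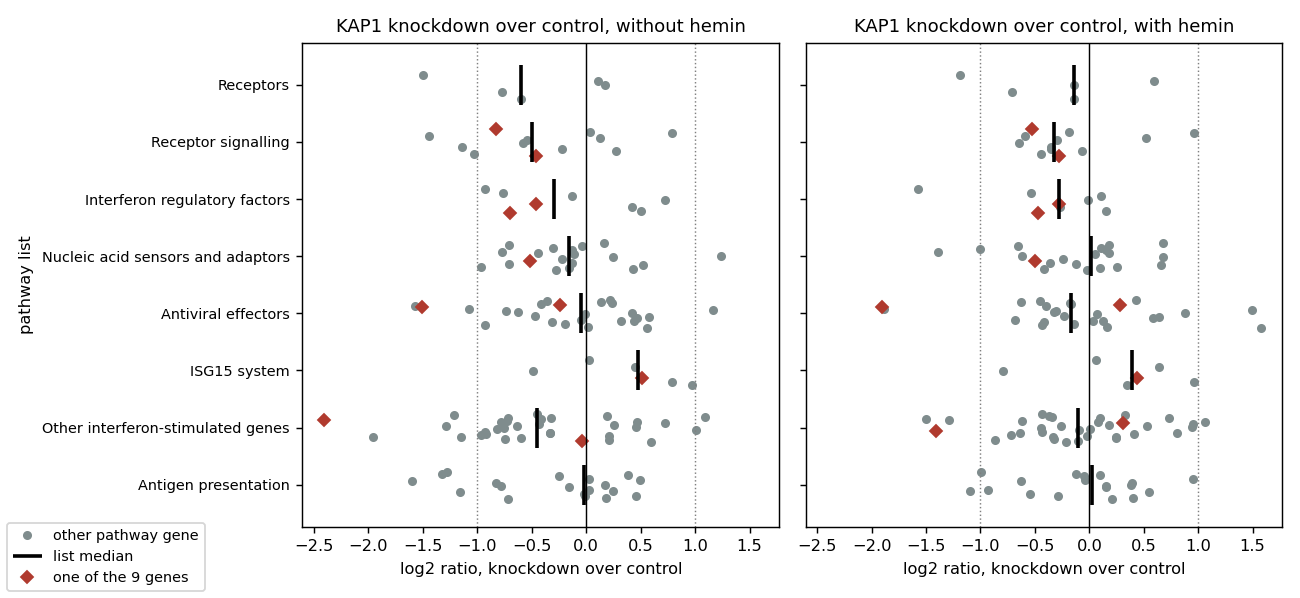
Log2 ratio of knockdown over control for the pathway genes at the floor, by list, without hemin and with hemin; diamonds are the 9 genes, circles other pathway genes, bars list medians and dotted lines 2-fold. Medians run from -0.60 for receptors to 0.48 for the ISG15 system without hemin.

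**Figure D4:**
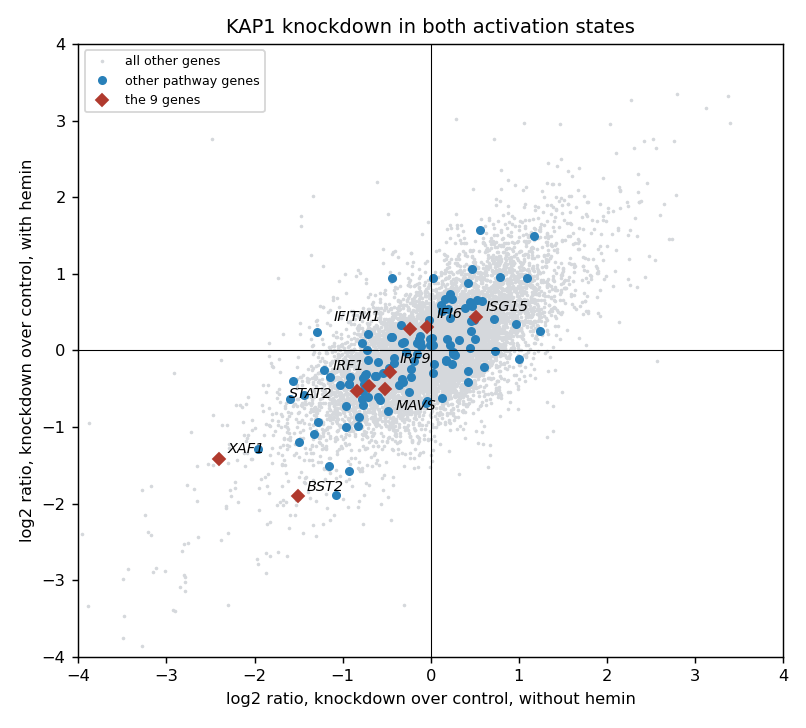
Log2 ratio of knockdown over control without hemin (horizontal) against with hemin (vertical) for 10620 genes, of which 8 lie outside the axes; the 2 axes share no library. XAF1 and BST2 lie at the lower left, at -2.41 and -1.41 and at -1.51 and -1.91, and the other 7 genes are within 1 of 0 on both axes.

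Hemin was compared next, within each genotype. Each of these libraries also served in a knockdown comparison. None of the 9 genes was 2-fold apart with hemin in either genotype: 0 were at least 2-fold lower in control cells, against 2.59% of 10799 genes, and 0 higher, against 2.6%. In KD cells 0 were lower, against 1.71% of 10828 genes, and 0 higher, against 2.31%. By any amount, 3 were lower in KD cells, against 49.9% of genes, and 6 higher, against 50.1%. In control cells 4 were lower, against 50.6%, and 5 higher, against 49.4%. In the additive fit 0 members fell and 0 rose with hemin at a limma adjusted p under 0.05, where 2.96% and 3.03% of genes did. IRF9 had the lowest limma adjusted p of the 9, 0.168, with a coefficient of 0.55 (SE 0.24), and its unadjusted p was 0.0212. Least squares without pooling called 0 genes for hemin, with 806 at an unadjusted p under 0.05.

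By counting interval, 5 members were higher with hemin in KD cells (XAF1, STAT2, IRF1, IRF9 and MAVS), against 40.7% of 10824 genes, and 0 lower, against 40.7%. In control cells 4 were higher (STAT2, IRF9, ISG15 and MAVS), against 37.7% of 10795 genes, and 4 lower (XAF1, IRF1, IFI6 and IFITM1), against 38.9%. The 2 ISGF3 genes among the members were higher with hemin in both genotypes. STAT2 had log2 ratios of 0.58 (interval 0.51 to 0.68) in KD cells and 0.28 (interval 0.22 to 0.34) in control cells, and IRF9 had 0.64 (interval 0.50 to 0.79) and 0.46 (interval 0.35 to 0.57). XAF1 had 0.72 (interval 0.52 to 1.11) in KD cells and -0.28 (interval -0.42 to -0.16) in control cells. BST2 had -0.24 in KD cells and 0.15 in control cells, and both intervals span 0. IFITM1 had -0.02 in KD cells and -0.55 in control cells, and IFI6 had -0.03 and -0.38. In the deposited values, which carry depth, the sign differs for IRF1 in control cells and for BST2, IFI6 and IFITM1 in KD cells.

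**Figure D5:**
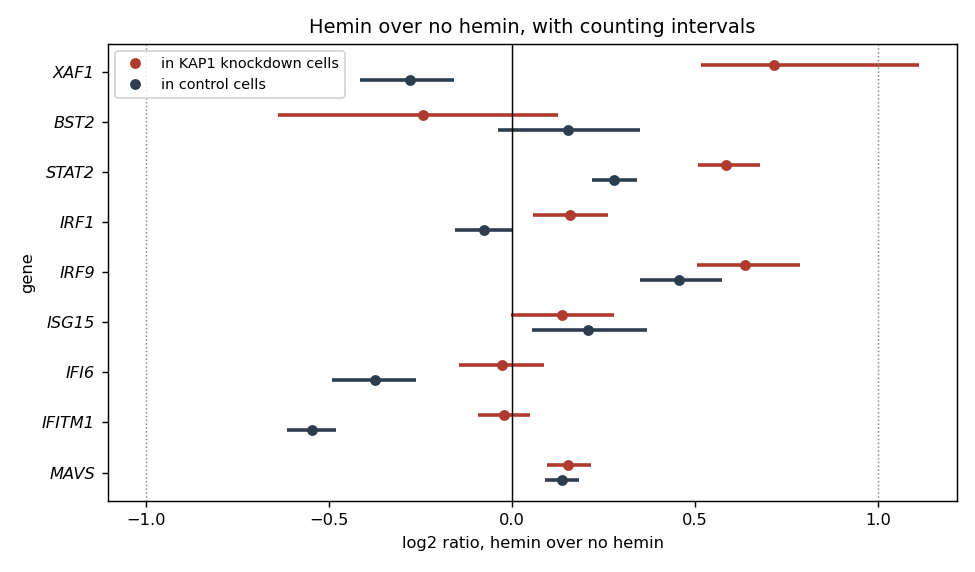
Log2 ratio of hemin over no hemin for the 9 genes in KAP1 knockdown cells and in control cells; bars are 95% counting intervals and dotted lines mark 2-fold. All points lie within 2-fold, and STAT2, IRF9 and MAVS are above 0 in both genotypes.

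Outside the members, 6 of 115 pathway genes were at least 2-fold higher with hemin in KD cells, against 2.31% of all genes, and 0 lower, against 1.71%. In control cells 4 of 118 were higher, against 2.6%, and 4 lower, against 2.59%. Higher in both genotypes were IFI44 and SAMD9L. IFI44, which encodes a cytoplasmic interferon-induced protein, reached 85.8 scaled TPM in KD cells given hemin against 41.0 in those not given it, and 92.4 against 20.2 in control cells. SAMD9L, a growth-restricting antiviral gene, reached 9.76 scaled TPM in KD cells given hemin against 3.54 in those not given it, and 18.2 against 6.63 in control cells.

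Likeness of pattern was measured as the Euclidean distance between log2 levels over the 4 libraries, each gene centred on its mean. Among the members, IRF1 and MAVS were nearest to each other (0.17), as were IFI6 and IFITM1 (0.17), STAT2 and IRF9 (0.34) and XAF1 and BST2 (0.77). Of 11162 genes, ST3GAL5 (0.15), C12orf39 (0.22) and SLC7A11 (0.27) were nearest to XAF1, and C19orf38 (0.12), DNASE2 (0.14) and KCNN1 (0.18) to BST2. With 4 points per profile these are descriptions. ST3GAL5, for example, was at 1.96 and 3.18 scaled TPM in the KD libraries without and with hemin, against 13.2 and 9.85 in the controls. DNASE2, a lysosomal nuclease gene, was at 18.6 and 15.8 in KD against 49.0 and 61.8 in control.

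Markers of other cell types were set beside these values. All 10 erythroid and all 9 megakaryocyte markers reached the floor, as fits the erythroleukaemia label. They also moved. At least 2-fold higher with hemin in each genotype were 4 of 10 erythroid markers, the globin genes HBG1, HBG2, HBA1 and HBA2. The share of all genes was 2.31% in KD cells and 2.6% in control cells. By any amount 8 were higher and 2 (GATA1 and KLF1) lower with hemin in KD cells, against 50.1% and 49.9% of genes. In control cells 10 were higher, against 49.4%. Between KD and control, HBA1 and HBA2 were at least 2-fold higher in KD in each state, against 6.7% of genes without hemin and 6% with hemin. EPOR was at least 2-fold lower in KD in each state, against 6.44% and 4.13%. With hemin, 6 of 9 megakaryocyte markers were at least 2-fold higher in KD than in control cells, against 6% of genes. Without hemin 0 were, against 6.7%. Hemin over no hemin, the median log2 ratio of the megakaryocyte markers was 0.04 in KD cells and -1.16 in control cells. In control cells 6 of them were at least 2-fold lower, against 2.59% of genes. Eosinophil and mast cell markers were lower in KD: the 5 in the table summed to 25.5 scaled TPM in KD cells against 1489 in control cells without hemin, and to 43.8 against 757 with hemin. PRG2 made up most of the sum in control cells and CPA3 was the highest marker in KD cells. The 6 monocyte and macrophage markers in the table summed to 69.2 scaled TPM in KD cells against 89.5 in control cells without hemin, and to 106 against 193 with hemin, with CD14 at or under 0.37 in every library. Of the 3 at the floor, 2 were lower in KD and 1 was higher in each state. Over all genes 48.2% were lower in KD without hemin and 49.6% with hemin. CD68 was lower in KD, at 12.0 against 33.6 without hemin and 21.5 against 114 with hemin. LYZ was higher in KD, at 51.7 against 47.0 without hemin and 80.0 against 70.8 with hemin. T, B and NK cell markers summed to 146 in KD against 131 in control without hemin, and to 139 against 88.0 with hemin, most of it CD2. Of the 4 at the floor 3 were lower in KD in each state, against 48.2% and 49.6% of genes, with medians of -1.12 and -0.97. CD3D, CD3E and MS4A1 had no row. Plasmacytoid dendritic cell markers summed to 11.4 in KD against 15.6 in control without hemin and to 15.2 against 13.0 with hemin. Most of it was TCF4, and CLEC4C and LILRA4 had no row. The sum of RNAs without a poly-A tail was highest in KD cells with hemin. The 6 in the table summed to 327 in KD against 472 in control without hemin, and to 1794 against 1146 with hemin, most of it RN7SL1. Of the 4 at the floor, 2 were lower and 2 higher in KD without hemin, against 48.2% and 51.8% of genes. With hemin all 4 were higher, against 50.4%. SCARNA2 and TERC, under the floor, were highest in control cells with hemin and in KD cells without hemin, respectively. The part of these in the differences of the 9 genes was not tested.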

How the data were processed

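RNA-seq was done in 4 HEL libraries, 1 per group, and groups were taken from the sample titles. Per the file headers, the authors deposited values called RPKM for each RefSeq transcript. The submitters' processing notes name Bowtie and hg19 but give them no role, and say nothing of counting or strand. The values were not scaled to depth: within a row they are whole reads times a factor per library over transcript length. Whole reads were recovered for 24533 of 24538 rows, within 0.0002 reads plus a relative 4e-09. A common factor lost in this step was restored in 989 rows, where the implied length was not whole. Where the length divides by it too, it stays lost and the interval is too wide. The other 5 rows, TRIM28 among them, hold whole numbers of unstated origin. For each gene, the transcript highest on average was used. Effective totals used the trimmed mean of log ratios (TMM, trims 0.3 and 0.05), and the mean library sum was set to 1000000. Factors were between 0.964 and 1.03. The additive model was fitted with limma 3.58.1 in R 4.3.3, with an expression trend in the pooled spread, and p-values were adjusted by Benjamini-Hochberg (threshold 0.05). Ratios and intervals were computed with Python 3.11.15 and scipy 1.17.1, and the steps were tested on simulated data. The 9 genes and the pathway lists were chosen with earlier results of these data known. Their counts under the settings given here are set beside those of all genes, which does not undo that choice. The genes named with values are the 9, TRIM28, pathway genes at least 2-fold apart the same way in both knockdown or both hemin comparisons, and nearest genes by distance. Cell type markers are also named, as are USP18, UBE2L6, UBA7 and IRF2BP2, picked after their values were seen. Mouse KAP1 ChIP-seq peaks were not used here, and some genes of the lists are not reported by name.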

Additional observations from a re-analysis of the deposited data

Results flagged for a closer look

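Of the 9 genes, 3 had opposite directions in the 2 parts of a contrast, each with both counting intervals off 0. None of these differences was tested, since each group was 1 library. XAF1 was higher with hemin in KD cells and lower in control cells, a difference of 0.99 on the log2 scale with a counting SE of 0.16. IRF1 did the same with a difference of 0.23 (counting SE 0.07), and its interval in control cells reached -0.00077, next to 0. For IFITM1 the log2 ratio of knockdown over control was higher with hemin than without by 0.52 (counting SE 0.05), with opposite signs in the 2 states.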

How the results depend on the processing

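Of 36 member ratios, 36 kept their sign with equal medians, with pseudocounts of 0.1 and 1, with each gene's most-read transcript and with the sum of transcripts. With plain library totals 1 changed sign (IFI6 without hemin), and the median of all genes moved to 0.14 without and 0.11 with hemin in the knockdown comparisons. With the deposited values as they stand, which carry depth, 5 changed sign, ISG15 in KD without hemin among them, and the median of all genes was -0.55 without hemin and 0.22 with hemin. Those values gave 6 members at least 2-fold lower in KD without hemin, 6 higher with hemin in KD cells, and 0 falling with knockdown in the additive fit. Least squares without pooling also gave 0. Plain totals and limma without a trend gave 2, without STAT2, and a floor of 20 gave 3, with IRF1 in place of XAF1, which was not tested there. For the other pathway genes the deposited values gave 44 lower and 0 higher in KD without hemin, and 5 lower and 9 higher with hemin. In the hemin comparisons the deposited values gave 7 higher in control cells and 62 in KD cells.

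A floor of 20 left 1 member lower in each state, since XAF1 no longer reached it, and 5 other pathway genes lower in KD with hemin. Of the other pathway genes, that floor left 2 higher with hemin in control cells and 3 in KD cells. Without a floor 5 of the other pathway genes were higher in KD with hemin, and with plain totals 7 of them were. A 1.5-fold limit gave 4 members lower in KD without hemin and 2 higher with hemin in KD cells. For the other pathway genes it gave 39 lower and 9 higher in KD without hemin, 23 and 16 with hemin, 14 lower and 13 higher with hemin in control cells, and 6 lower and 26 higher in KD cells. The cause was not tested beyond what each setting does by construction. No share over all genes stands beside the counts under these other settings, so none is read as a result about these genes.

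No paired analysis was possible because each group was 1 library with no replicate number in the labels, and leaving out a library leaves no residual degree of freedom. Depth limits BST2 and XAF1 most, with 97 and 125 reads in KD without hemin.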
